A study of Homo sapiens with 3 samples.

Results

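The mRNAs described here encode the nuclear-encoded respiratory chain, grouped by complex. The members are protein-coding genes of GENCODE 29 whose symbols start with NDUFA, NDUFB, NDUFC, NDUFS, NDUFV, UQCR, COX4 to COX8 or ATP5, together with SDHA, SDHB, SDHC, SDHD, CYC1 and CYCS. This rule took 101 of 52992 genes, with 749 transcripts, and used no measured value. RNA was pulled down from J82 cells, an established line from a human bladder cancer, and sequenced, with 1 library for each of 3 proteins. The first was glutathione S-transferase (GST) alone, the control for RNA recovered without ZFP36L1. The second was GST fused to wild-type ZFP36L1, and the third GST fused to the ZFP36L1-Ala mutant, whose replaced residues are not given in the labels. All 3 baits met lysate of the same line, for which the labels name no drug or gene change. By the labels the groups differ in the bait, but the name of the GST table also carries another code, as described below.

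The respiratory chain sits in the inner mitochondrial membrane. Complex I takes electrons from NADH and complex II, the succinate dehydrogenase of the citrate cycle, takes them from succinate. Complex III passes them to the small soluble protein cytochrome c, and complex IV hands them to oxygen. Complexes I, III and IV pump protons, and complex V, the ATP synthase, uses the returning protons to make ATP. Complex II is encoded wholly in the nucleus, whereas the others also contain subunits made from mitochondrial DNA. ZFP36L1 is a zinc finger protein that speeds the decay of mRNAs it binds. It does so at AU-rich stretches of the 3′ untranslated region (3′ UTR) built around the core sequence UAUUUAU.

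The site UAUUUAU was searched on the sense strand of the 3′ UTR of each member's main coding transcript, which is the coding transcript of highest TPM (level per length) averaged over the libraries. Of 90 measured members with an annotated 3′ UTR, 7 held it (7.78%), against 3554 of 11450 genes (31%) in all. The 3′ UTRs of members were also shorter, with a median of 151.5 bases against 969. The 8 sites are shown because they are the only copies of the core site in these 3′ UTRs. Each is printed 5′ to 3′ from the GENCODE 29 transcript, with UAUUUAU in capitals and its GRCh38 position.
CYCS, chr7:25123667-25123695, minus strand: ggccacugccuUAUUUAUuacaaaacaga
CYCS, chr7:25122262-25122290, minus strand: agucuuauuuuUAUUUAUagaaaugugga
COX7A2, chr6:75237818-75237846, minus strand: uuggggaucaaUAUUUAUugacuuguagu
ATP5PB, chr1:111462577-111462605, plus strand: auauuugaaaaUAUUUAUcauggguaauu
UQCRC2, chr16:21983377-21983405, plus strand: uaaucaacaagUAUUUAUuaugugcugau
NDUFAF5, chr20:13817211-13817229, plus strand: aUAUUUAUucaguguuaau
NDUFS4, chr5:53683262-53683290, plus strand: cagcugugcagUAUUUAUaguccauguau
NDUFAF4, chr6:96890959-96890987, minus strand: cauacucuuaaUAUUUAUugagcucccug
All 8 windows lie in a 3′ UTR exon and none of the sites overlaps another. Cytochrome c alone held 2 copies. The NDUFAF5 window is shorter because its site begins at base 2 of the 3′ UTR. A match is a description of the sequence and not a measured binding site.

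Each library held 19137867 (GST), 19845386 (wild type) and 19153483 (Ala mutant) estimated counts. Genes whose counts averaged 10 or more entered the comparisons, which 14082 genes and 92 members did. Ratios are log2 of counts scaled by TMM, and a gene is called higher or lower when it differs at least 2-fold and its exact 95% counting interval excludes a ratio of 1. Intervals cover counting error only, and the design has no replicates. The ratios compare shares of each library, so a lower recovery of one mRNA and a higher recovery of others cannot be told apart. The name of the GST table carries another code than those of the 2 ZFP36L1 tables, which share one. What the code marks is not stated in the labels, and it cannot be told apart from the bait in ratios over GST. Mitochondrial-genome transcripts took 10.2%, 14.9% and 7.22% of the counts for GST, wild type and Ala mutant. Of 14 urothelial and epithelial markers 6 were measured, KRT18 among them with 12980, 823 and 20794 counts, while UPK3A, KRT5 and KRT19 stood at 0. All 4 mesenchymal markers were measured. Of 9 markers of leukocytes, erythroid cells and hepatocytes, only LYZ met the minimum, with 13, 7 and 13 counts.

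With wild-type ZFP36L1, mRNAs of complexes I, III, IV and V were mostly lower than with GST, whereas those of complex II and cytochrome c were not. Of the 92 measured members 52 were lower (56.5%), against 34.2% of all genes, and 12 were higher (13%), against 25.5% of all genes. The median log2 ratio of members was -1.37, beside -0.03 for all genes. By complex, the median was -2.10 for complex I, -1.71 for complex III, -2.03 for complex IV and -1.79 for complex V. The 4 mRNAs of complex II had a median of 0.78, and cytochrome c stood at 1.82. As a share of all counts, members made up 1.5% of the GST library, 1.08% of the wild-type library and 1.80% of the Ala library. Complex II ran the other way, with 0.0498%, 0.0921% and 0.0420%.

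**Figure D1:**
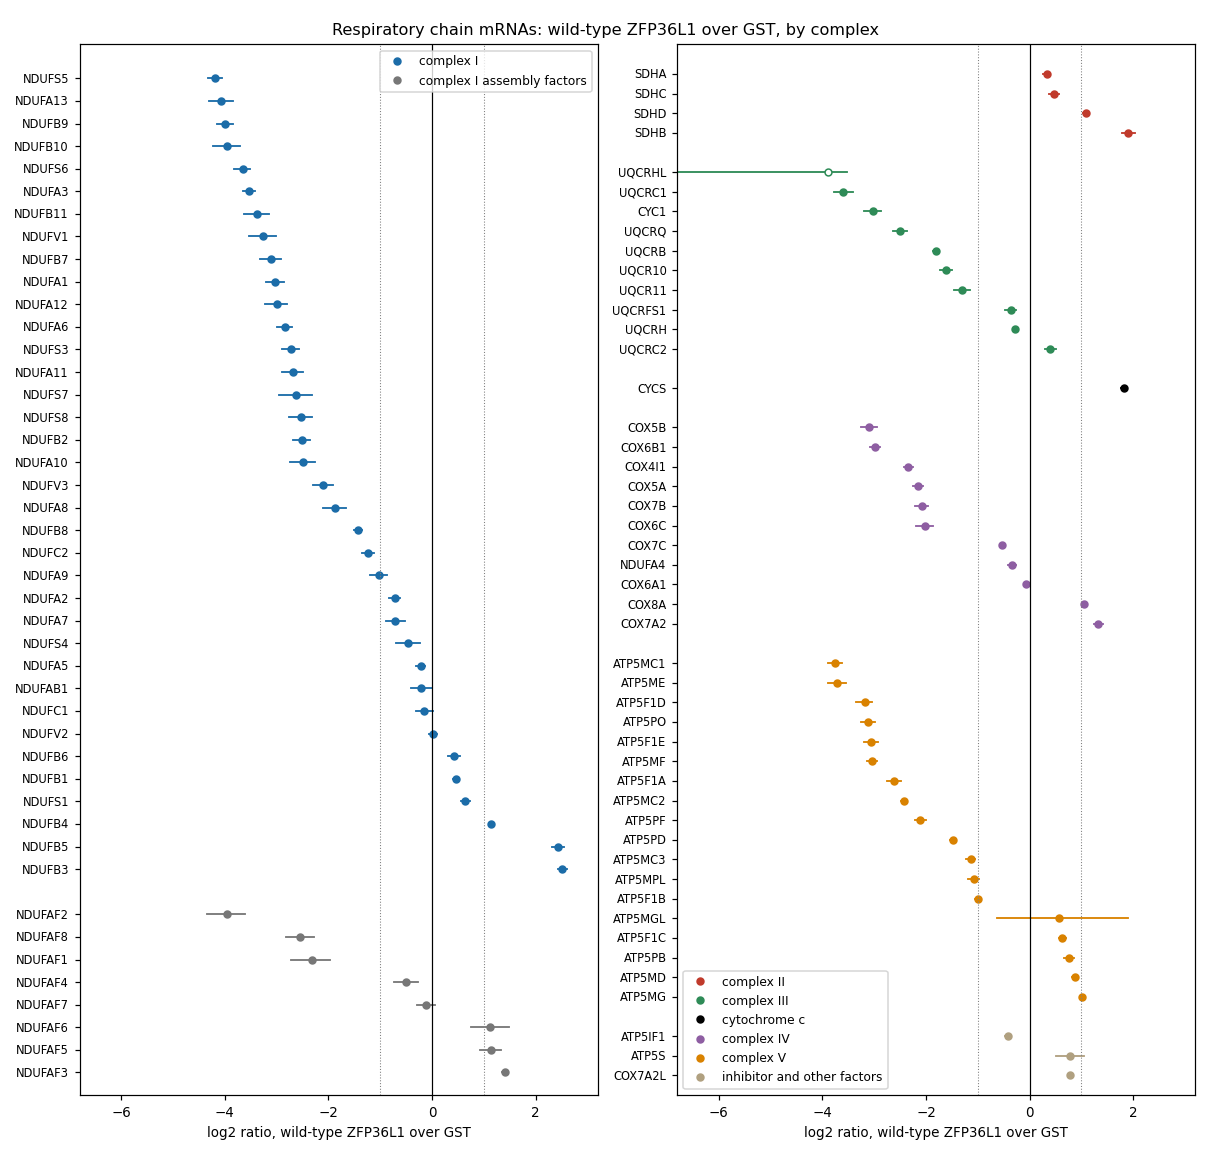
Log2 ratio of wild-type ZFP36L1 over GST for measured members, ordered within its complex, with lines for the 95% counting interval and dotted lines at a 2-fold difference. UQCRHL had 0 counts with the wild type and is drawn open at its bound, with an interval that has no lower end. Most points of complexes I, III, IV and V lie left of 0, and the 4 points of complex II and that of CYCS lie right of it.

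Complex II, the succinate dehydrogenase, oxidises succinate to fumarate and feeds electrons to ubiquinone. SDHB, its iron-sulfur subunit (chromosome 1, 17018722 to 17054170, minus strand of GRCh38), had 597 counts with GST, 2371 with the wild type and 737 with the Ala mutant. The wild-type library was the high one, 3.75-fold above GST (log2 1.91, 1.78 to 2.04). SDHD, a membrane anchor (chromosome 11, 112086773 to 112120013, plus strand), had 4131, 9306 and 1735 counts. It was higher with the wild type than with GST (log2 1.09, 1.04 to 1.14) and lower with the Ala mutant than with GST (log2 -1.11, -1.19 to -1.03). SDHC, the other anchor (chromosome 1, 161314257 to 161375340, plus strand), had 1592, 2326 and 1387 counts and did not reach 2-fold (log2 0.46, 0.37 to 0.56). SDHA, the flavoprotein that binds succinate (chromosome 5, 218241 to 256700, plus strand), had 3213, 4270 and 4187 counts, a ratio of 0.33 (0.26 to 0.39) for wild type over GST. Its gene sum hides a split between transcripts. SDHA-209, a transcript with no coding sequence, had 1045, 3314 and 1451 counts. The protein-coding transcripts of SDHA had 2013, 890 and 2493 counts, which put their own ratio at -1.28 (-1.39 to -1.16). So the coding mRNA of SDHA was lower with the wild type, unlike that of the other 3 subunits. No main transcript of complex II held UAUUUAU. Between wild type and Ala mutant, the gene sums of SDHD were 4.60-fold apart (log2 2.20, 2.13 to 2.28) and those of SDHB 2.76-fold apart (log2 1.46, 1.34 to 1.58). Both were higher with the wild type. SDHB-204, a transcript with no coding sequence, had 195, 1226 and 172 counts. The coding transcripts of SDHB had 386, 1145 and 559 counts, with log2 1.47 (1.30 to 1.64) for wild type over GST. For wild type over Ala mutant their ratio was 0.72 (0.58 to 0.87), short of 2-fold.

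Cytochrome c carries electrons between complexes III and IV and triggers apoptosis when it leaves the mitochondrion. Its mRNA CYCS (chromosome 7, 25120091 to 25125361, minus strand) had 3987 counts with GST, 14904 with the wild type and 1940 with the Ala mutant. The wild-type library was highest and the Ala library lowest, with log2 1.82 (1.77 to 1.87) for wild type over GST, -0.90 (-0.98 to -0.82) for Ala mutant over GST and 2.72 (2.65 to 2.79) for wild type over Ala mutant. The transcript with the long 3′ UTR, CYCS-201 with 3610 bases of 3′ UTR and both sites printed above, had 3291, 14314 and 1430 counts. CYCS-203, with a 3′ UTR of 257 bases that holds 1 site, had 529, 25 and 337. CYCS-202, with a 3′ UTR of 394 bases and 1 site, had 167, 565 and 173. CYCS-201 and CYCS-202 were thus higher with the wild type than with GST, and CYCS-203 was lower. So the short forms did not share one direction. CYCS-201 carried most of the gene's counts in every library. The split between these overlapping transcripts is an estimate.

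Complex I is the NADH dehydrogenase, the largest of the complexes. Of its 37 measured mRNAs 24 were lower and 3 were higher for wild type over GST. Its 7 nuclear-encoded core subunits carry the flavin and the iron-sulfur clusters. NDUFV1, which binds NADH, had 1242 counts with GST, 136 with the wild type and 3176 with the Ala mutant (wild type over GST log2 -3.27, -3.54 to -3.02). NDUFS7 had 581, 99 and 1934 counts (log2 -2.63, -2.96 to -2.33), and NDUFS8 had 1073, 196 and 4164 (log2 -2.53, -2.76 to -2.31). For these 3 iron-sulfur or flavin subunits the order was the same, with the Ala mutant highest and the wild type lowest. NDUFS3 had 2038, 325 and 2759 counts (log2 -2.73, -2.90 to -2.56) and the same order. These are gene sums. NDUFS7-205, annotated for nonsense-mediated decay, held 491, 78 and 1662 of the NDUFS7 counts. NDUFS3-203, with no coding sequence, held 1634, 274 and 2218 of the NDUFS3 counts. The coding transcripts kept the order, with 516, 35 and 953 counts for NDUFV1 and 37, 0 and 232 for NDUFS7. Those of NDUFS8 had 1028, 192 and 4130, and those of NDUFS3 had 396, 48 and 522. The gene sums of NDUFS1 and NDUFV2 were not lower. NDUFS1, the largest core subunit, had 1708, 2825 and 1474 counts (log2 0.64, 0.56 to 0.73). NDUFV2 had 2596, 2770 and 2487 counts (log2 0.01, -0.07 to 0.09), nearly level across the libraries, but its coding transcripts had 1293, 673 and 800 and were lower with the wild type (log2 -1.04, -1.18 to -0.91).

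**Figure D2:**
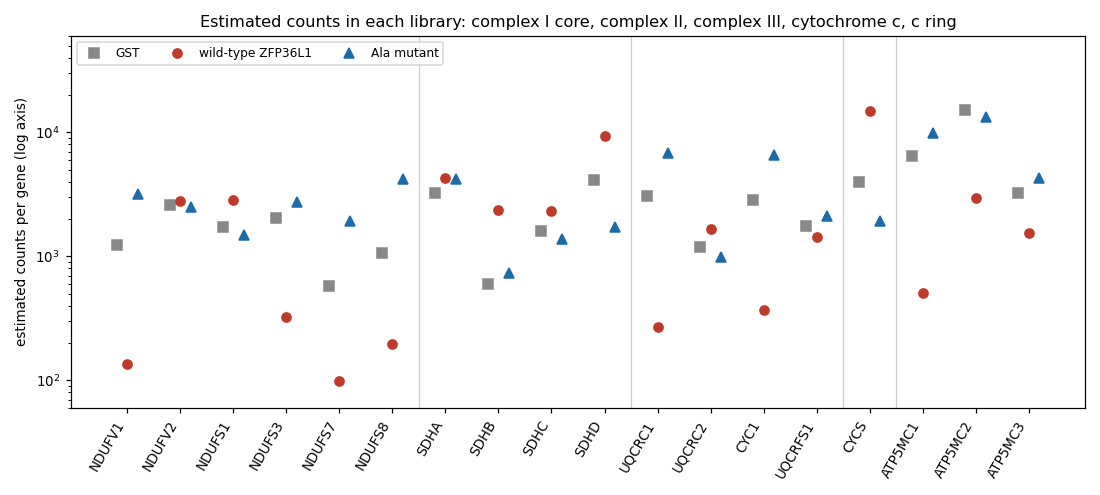
Estimated counts per gene (log axis) in the GST, wild-type ZFP36L1 and Ala mutant libraries for 6 subunits of the complex I core, complex II, 4 subunits of complex III, cytochrome c and the c ring of complex V. Wild-type points are the lowest of the 3 for NDUFV1, UQCRC1, CYC1 and ATP5MC1 and the highest for SDHB, SDHD and CYCS.

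The accessory subunits of complex I surround the core, and 19 of the 30 measured were lower and 3 higher. The lowest was NDUFS5, a subunit of the intermembrane space side, with 7951, 460 and 6737 counts for GST, wild type and Ala mutant. It was 18.3-fold lower with the wild type than with GST (log2 -4.19, -4.33 to -4.06), and its GST and Ala values were close. NDUFA13, also known as GRIM-19, had 2627, 165 and 4347 counts (log2 -4.07, -4.31 to -3.85). NDUFB9 had 5189, 346 and 6194 counts (log2 -3.99, -4.15 to -3.83). In all 3 gene sums the wild-type library stood far below the other two. NDUFA13-207, annotated for nonsense-mediated decay, held 1825, 162 and 4279 of the NDUFA13 counts. The coding transcripts of NDUFA13 had 793, 2 and 61 counts, so the Ala library was also well below GST (log2 -3.48, -3.89 to -3.11). At the other end were 3 subunits of the NDUFB group, which lies in the membrane arm. NDUFB3 had 1256, 7609 and 1317 counts, 5.72-fold higher with the wild type than with GST (log2 2.52, 2.43 to 2.60). NDUFB5 had 651, 3714 and 477 counts, a ratio of 2.43 (2.31 to 2.55). NDUFB4 had 8703, 20158 and 6958 counts, a ratio of 1.13 (1.09 to 1.17). These 3 were the only complex I mRNAs called higher, and each was also higher with the wild type than with the Ala mutant. The NDUFB group held 3 higher (27.3%) and 6 lower (54.5%) of 11, with a range from -3.99 to 2.52. Of all genes 25.5% were higher and 34.2% lower, so its share of higher mRNAs was near that of all genes. Of the 19 other accessory subunits 13 were lower and none was higher, with ratios from -4.19 to -0.15.

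The 8 assembly factors whose symbols start with NDUFAF help to build complex I and are not part of it. Of these, 3 were higher and 3 were lower (37.5% each) with wild type over GST, against 25.5% and 34.2% of all genes. NDUFAF3 had 3502, 9772 and 5596 counts (log2 1.40, 1.34 to 1.45), and NDUFAF5, with 1 of the sites printed above, had 291, 675 and 400 (log2 1.13, 0.93 to 1.34). NDUFAF2 had 1005, 68 and 489 counts (log2 -3.96, -4.34 to -3.61). This set did not share one direction. NDUFAF4, which also holds a site, had 385, 288 and 138 counts, so its highest value was with GST.

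Complex III, the cytochrome bc1 complex, had 7 of 10 mRNAs lower and none higher. UQCRC1, a core protein (chromosome 3, 48599002 to 48610976, minus strand), had 3086 counts with GST, 270 with the wild type and 6767 with the Ala mutant (wild type over GST log2 -3.59, -3.78 to -3.42). CYC1, the cytochrome c1 subunit, had 2851, 369 and 6557 counts (log2 -3.03, -3.19 to -2.87). Both gene sums were lowest with the wild type and highest with the Ala mutant. UQCRC1-207, a retained-intron transcript, held 2307, 239 and 5271 of the UQCRC1 counts. The coding transcripts of UQCRC1 had 203, 0 and 226. UQCRQ had 2965, 557 and 4423 counts (log2 -2.49), UQCR10 had 2324, 808 and 3482 (log2 -1.61) and UQCR11 had 1247, 535 and 2167 (log2 -1.30). These small subunits kept the same order of libraries. UQCRB, which takes part in ubiquinone binding, had 8905, 2694 and 5814 counts (log2 -1.81, -1.87 to -1.74), with GST highest. The hinge protein UQCRH had 9858, 8635 and 9513 counts (log2 -0.27, -0.32 to -0.23). UQCRFS1, the Rieske iron-sulfur protein, had 1752, 1439 and 2110 counts (log2 -0.37, -0.47 to -0.26). UQCRC2, the other core protein and the holder of a site, had 1189, 1655 and 990 counts, the only positive ratio of this complex (log2 0.39, 0.29 to 0.50). UQCRHL, a near copy of UQCRH, had 42, 0 and 5 counts. Against a floor of 3 counts in the wild-type library it was at least 14.8-fold lower than with GST. It shares sequence with UQCRH, so its counts are uncertain. With UQCRHL at that bound the complex III median stayed at -1.71, and without it the median was -1.61.

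Complex IV, the cytochrome c oxidase, had 6 of 11 measured mRNAs lower and 2 higher. COX5B had 3249 counts with GST, 402 with the wild type and 4458 with the Ala mutant (log2 -3.10, -3.25 to -2.95). COX6B1, a subunit of the intermembrane space side, had 8081, 1081 and 14352 counts (log2 -2.98, -3.08 to -2.89), and COX4I1 had 6248, 1304 and 8720 (log2 -2.34, -2.43 to -2.26). Each was lowest with the wild type. COX7A2 had 1241, 3297 and 2528 counts (log2 1.33, 1.23 to 1.42), and COX8A had 5306, 11663 and 9458 (log2 1.05, 1.01 to 1.10). In both, the Ala library also stood well above GST, so that wild type and Ala mutant differed little (log2 0.16 and 0.08). COX6A1 had 5330, 5403 and 6288 counts, a ratio of -0.06 (-0.12 to -0.01). NDUFA4, named for complex I and placed here with complex IV, had a ratio of -0.34. The 7 tissue-specific isoforms COX4I2, COX6A2, COX6B2, COX7A1, COX7B2, COX8C and NDUFA4L2 did not meet the minimum, and none had more than 7 counts in any library. COX7A2L, a factor of supercomplex formation kept apart from the subunits, had 4851, 8858 and 4245 counts (log2 0.79, 0.74 to 0.84).

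Complex V, the ATP synthase, had 12 of 18 measured mRNAs lower and 1 higher. In the proton-driven c ring all 3 genes, which encode the same mature peptide, were lower with the wild type than with GST. ATP5MC1 had 6480, 510 and 9895 counts for GST, wild type and Ala mutant (log2 -3.75, -3.88 to -3.62). ATP5MC2 had 15051, 2967 and 13346 counts (log2 -2.42, -2.48 to -2.37), and ATP5MC3 had 3216, 1551 and 4285 (log2 -1.13, -1.22 to -1.05). The 3 counting intervals did not overlap. Within ATP5MC3 the transcripts differed. The long ATP5MC3-201, of 5484 bases, had 365 counts with GST and 900 with the wild type, while ATP5MC3-203, of 795 bases, had 2650 and 414. In the catalytic F1 head 3 of 5 mRNAs were lower. ATP5F1D had 3297, 383 and 7838 counts (log2 -3.19, -3.34 to -3.03). ATP5F1B, the catalytic beta subunit, had 8282, 4406 and 9333 (log2 -0.99, -1.05 to -0.94), just inside the 2-fold threshold. ATP5F1C, the rotating gamma subunit, had 2981, 4880 and 2544 (log2 0.63, 0.56 to 0.70). Of the peripheral stalk 3 of 4 were lower, and the exception was ATP5PB, with a site, at 1412, 2533 and 872 counts (log2 0.76, 0.67 to 0.86). Among the membrane subunits ATP5ME was lowest, with 3514, 284 and 3562 counts (log2 -3.71, -3.89 to -3.54). ATP5MG was the one called higher, with 7744, 16599 and 9839 counts (log2 1.02, 0.98 to 1.06), and ATP5MD followed with 2947, 5731 and 2769 (log2 0.88, 0.81 to 0.94). ATP5IF1, the inhibitor of ATP hydrolysis by this enzyme, was kept apart from the subunits and had 5786, 4603 and 5011 counts (log2 -0.41, -0.47 to -0.36).

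The comparison of the Ala mutant with GST gave much smaller differences. Of the 92 members 11 were higher (12.0%), against 9.00% of all genes, and 3 were lower (3.26%), against 5.13% of all genes. The median of members was 0.33, beside 0.04 for all genes. The medians of complexes I to V were 0.40, 0.19, 0.56, 0.60 and 0.18. All 11 mRNAs of complex IV had a ratio above 0, but only COX7A2 was called (log2 1.17, 1.07 to 1.27). With other processing the lowest ratios were below 0 for COX5A (-0.15), COX6C (-0.08), COX7C (-0.34), COX6A1 (-0.03) and NDUFA4 (-0.03). Complex I, with 37 of the 92 measured members, held 7 of the higher mRNAs (18.9% of its 37, against 9.00% of all genes). Of these, 3 were among its 7 core subunits. NDUFA11, an accessory subunit, had 1340 counts with GST and 5322 with the Ala mutant (log2 2.13, 2.04 to 2.22), and NDUFS8 reached log2 2.10 (2.0 to 2.19). NDUFS7 stood at 1.87 and NDUFV1 at 1.49. In complex III the gene sums of UQCRC1 (log2 1.27) and CYC1 (log2 1.34) were higher, and in complex V that of ATP5F1D (log2 1.39). The coding transcripts of UQCRC1 had 203 counts with GST and 226 with the Ala mutant (log2 0.36, 0.08 to 0.64), short of 2-fold. Apart from COX7A2, the mRNAs called higher with the Ala mutant were all lower with the wild type than with GST, or, for NDUFA7, below GST without reaching 2-fold. The 3 lower members were SDHD, NDUFAF4 (log2 -1.34, -1.63 to -1.06) and UQCRHL.

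Wild type over Ala mutant compares the libraries whose tables share a code in their names. Of the 92 members 55 were lower with the wild type (59.8%), against 36.0% of all genes, and 9 were higher (9.78%), against 30.1% of all genes. Medians were -2.41 for complex I, 0.99 for complex II, -2.28 for complex III, -2.19 for complex IV and -1.84 for complex V, beside -0.04 for all genes. The lowest were NDUFA13 (log2 -4.94, -5.18 to -4.72), UQCRC1 (log2 -4.87, -5.05 to -4.69) and NDUFA11 (log2 -4.82, -5.02 to -4.62). The 9 higher mRNAs were NDUFB3, NDUFB4, NDUFB5, SDHB, SDHD, CYCS, NDUFAF6, ATP5PB and ATP5S. NDUFB5 (log2 2.74, 2.60 to 2.88) and CYCS led them. None of complexes III and IV was among these. The bound for UQCRHL in this comparison was only 1.94-fold, since the Ala library had 5 counts, and with it the complex III median was -1.79. Without UQCRHL 54 members were lower. This comparison and that with GST share the wild-type library, so their values are given side by side and not as separate support for one another.

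**Figure D3:**
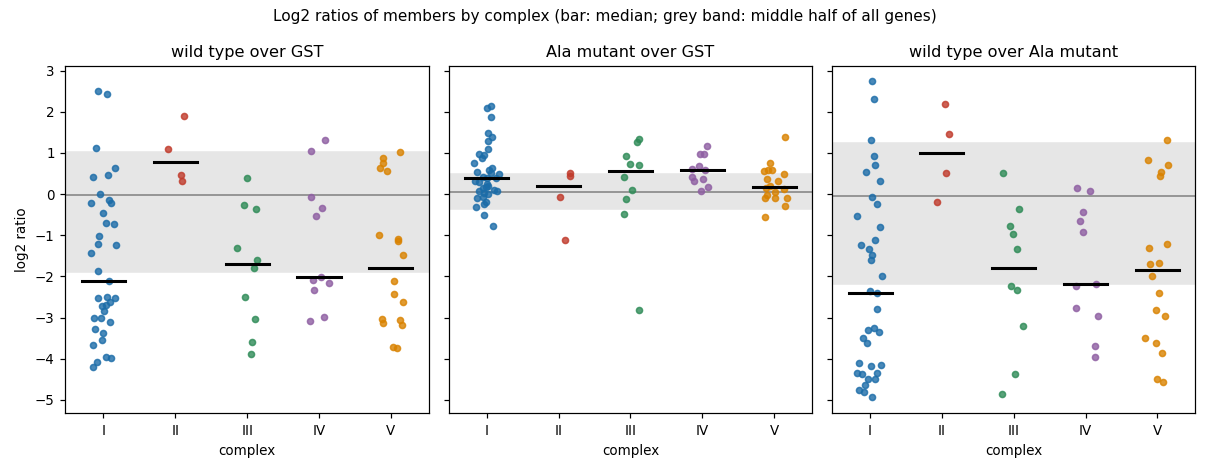
Log2 ratios of the measured members of complexes I to V in the 3 comparisons. Points are genes, black bars the median of each complex, the grey line the median and the grey band the range between the quartiles of all 14082 genes, and UQCRHL enters points and medians at its bound where the wild type had 0 counts. The median of complex II lies above those of the other complexes in both wild-type panels, and the 5 medians lie between 0.18 and 0.60 for Ala mutant over GST.

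Per transcript length, measured in TPM summed per gene, the order of the members changed between libraries. With GST the leading member was COX6B1 at 1460 TPM, followed by NDUFA3 at 1347, and COX6B1 also led with the Ala mutant at 2206. With the wild type COX6B1 stood at 242 TPM and NDUFA3 at 129. The leading members there were NDUFB4 at 2645 TPM, ATP5MG at 2175 and NDUFB1 at 1679. The summed TPM of complex II was 538 with GST, 1346 with the wild type and 497 with the Ala mutant, whereas that of complex I was 9416, 7258 and 10845. Complex III had 2776, 1485 and 2845 TPM in the same order.

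Members with UAUUUAU in the main 3′ UTR had a median wild-type over GST ratio of 0.76, against -1.81 for those without it. Over all genes the same medians were 0.94 and -0.68. The main transcripts of CYCS, COX7A2, ATP5PB, UQCRC2, NDUFAF5 and NDUFS4, which hold the site, had a GC content of 40.5% to 45.7%. The 34 members called lower at a GC content of 50% or more all lacked it. The part of GC content in this contrast was not tested. Of the 7 members with a site, CYCS, COX7A2 and NDUFAF5 were called higher, ATP5PB and UQCRC2 had positive ratios, and NDUFS4 (log2 -0.46) and NDUFAF4 (log2 -0.50) had negative ones. For NDUFAF4 the sign is that of the gene sum, and its coding transcripts, which hold the site, had 107, 173 and 43 counts for GST, wild type and Ala mutant (wild type over GST log2 0.59, 0.24 to 0.95). None of the 7 was called lower. The shares called among all genes with a site were not counted, so these calls are not a result about the members. Most of the members called higher lacked the site in the main transcript, among them NDUFB3, NDUFB5, SDHB and SDHD. Searching every protein-coding transcript raised the number of members with a site to 18, among them NDUFB4 with up to 3 copies. These counts depend on which transcript stands for a gene, and choosing by TPM favours short ones.

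Base composition moved with the ratios. Across the 92 members Spearman's rho between transcript GC content and the ratio was -0.56 for wild type over GST, 0.70 for Ala mutant over GST and -0.70 for wild type over Ala mutant. Across 14081 genes it was -0.59, 0.54 and -0.67. These correlations are across genes of the same libraries, which are not independent, and describe them only. Of 34 members with a GC content under 46%, 9 were higher and 10 lower with wild type over GST. Below 42% GC, 5 of 16 members were higher and 5 lower (31.3% each), against 47.9% and 5.57% of all genes. From 42% to 46%, 4 of 18 members were higher (22.2%) and 5 lower (27.8%), against 35.7% and 13.7% of all genes and 27.7% in each direction among genes with a main transcript under 1000 bases. Of 43 members at 50% or more, 34 were lower, and only COX8A and NDUFAF3 were higher. Lower ratios were common among all genes of that GC content too. Between 50% and 55% GC 18 of 24 members were lower, against 44.3% of all genes and 56.5% of those with a short main transcript, and at 55% or more 84.2% of 19 members, against 70.1% of all genes and 77.2% of those with a main transcript under 1000 bases. NDUFB5, at 33.9% GC, was among the highest ratios, and ATP5F1D, at 69.3%, among the low ones. Within complexes rho for wild type over GST ran from -0.68 in complex I (37 genes) to -0.12 in complex IV (11 genes). By GC range, the median of members mostly lay below those of all genes and of genes with a main transcript under 1000 bases. Between 50% and 55% GC the median of members was -2.22, against -0.73 for all genes and -1.51 for the short ones. Below 42% GC it was -0.28, against 0.96 and 0.59. The exception was the range from 42% to 46%, where it was 0.48, against 0.61 for all genes and 0.11 for the short ones. Members were short, with a median main transcript of 704.5 bases against 2654 for all genes with a 3′ UTR. With a fit on GC content and length removed, the median of members was -0.67, and 34 were lower and 12 higher. Complex II then had a median of 0.96, and complexes I, III, IV and V had -0.57, -0.82, -1.16 and -0.70. The part of GC content and length in the differences between complexes was not tested further.

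**Figure D4:**
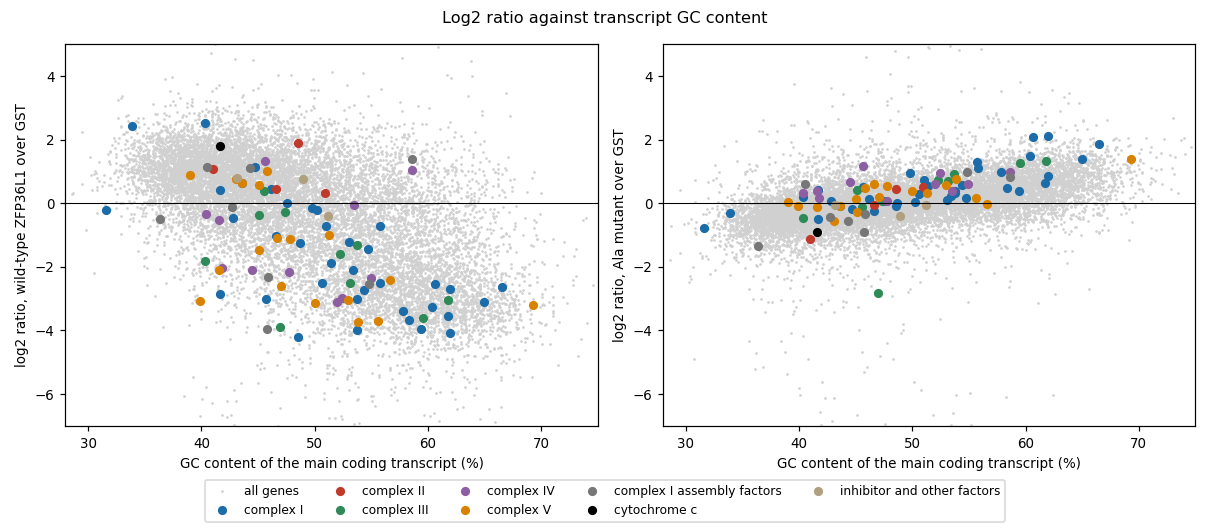
Log2 ratio against the GC content of the main coding transcript for all genes (grey) and members (coloured by complex), for wild type over GST and Ala mutant over GST, with the vertical axis limited to -7 to 5 so that some genes lie outside it. Ratios fall with GC content on the left (rho -0.56 for members) and rise with it on the right (rho 0.70), and UQCRHL is drawn at its bound on the left.

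Part of the counts came from transcripts not annotated as protein-coding. Protein-coding transcripts took 78.2%, 78.7% and 77.0% of member counts with GST, wild type and Ala mutant. For 11 of the 92 members the wild-type over GST ratio from coding transcripts differed from the gene's by at least 1 on the log2 scale. NDUFB8 moved from -1.43 to -3.68 (-3.95 to -3.44), where a retained-intron transcript, NDUFB8-204, had 2448, 1495 and 1731 counts and the coding NDUFB8-201 had 1665, 134 and 2432. ATP5F1C moved from 0.63 to -0.90 (-1.03 to -0.77), with 1479 counts of the non-coding ATP5F1C-206 seen in the wild-type library alone. ATP5F1B moved from -0.99 to -2.19 (-2.42 to -1.98), and NDUFV2 from 0.01 to -1.04. In each of these, the coding transcripts were lower than the gene sum showed. NDUFAF4 went the other way, from -0.50 to 0.59. The coding transcripts of UQCRC1 had 203 counts with GST, 0 with the wild type and 226 with the Ala mutant, at least 71.6-fold lower with the wild type than with GST. Those of NDUFA13 had 793, 2 and 61 counts, a log2 ratio of -8.40 with a wide counting interval (-11.8 to -6.87). Such splits are estimates of kallisto, since short overlapping transcripts share most of their reads.

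**Figure D5:**
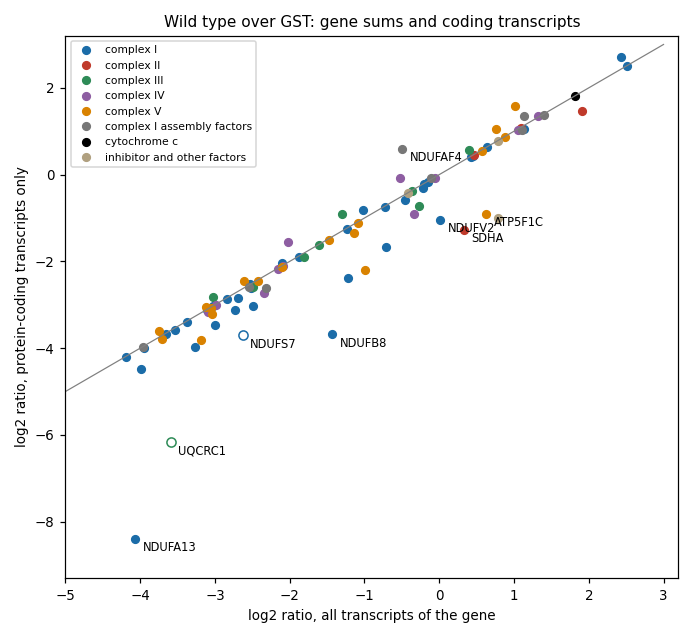
Log2 ratio of wild type over GST from all transcripts of a gene (horizontal) and from its protein-coding transcripts only (vertical), 1 point per measured member other than UQCRHL, with the line of equality. Open points had 0 coding counts with the wild type and are drawn at their bound, and SDHA, ATP5F1C and NDUFV2 fall from at or above 0 to below it.

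Many respiratory chain genes have processed pseudogenes, and 201 pseudogenes named after members together held 392, 133 and 397 counts, at most 0.136% of member counts. The median member shared 4.95% of its 31-mers with transcripts of other genes, and 9 shared at least 20%. Counts of those 9 are less certain. They are NDUFA7 (42.7%), NDUFB8 (35.4%), COX8A (30.6%), NDUFV2 (30.1%), UQCRH (25.1%), SDHD (22.1%), NDUFS3 (21.9%), ATP5MGL (20.3%) and NDUFC2 (20.3%). The gene closest to COX8A, AP000721.1, had 1 count in each library, whereas AP005263.1, closest to NDUFV2, had 1646, 1526 and 974. PTPMT1, closest to NDUFS3, had 2448, 3701 and 2802. Whether the library kit kept strand is not given, so overlapping antisense transcripts cannot be told apart.

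Other genes of the pathway were counted in the same way. Of 41 gene records for 40 further assembly factors 10 were higher (24.4%) and 15 lower (36.6%) with wild type over GST, near the 25.5% and 34.2% of all genes, with a median of -0.36. COX17, the copper chaperone of complex IV, had 1339, 12230 and 1443 counts (log2 3.11, 3.03 to 3.19). SDHAF4, an assembly factor of complex II, had 201, 1049 and 252 counts (log2 2.30, 2.08 to 2.53). Both were highest with the wild type. The 13 mRNAs of the mitochondrial genome encode the remaining subunits of complexes I, III, IV and V. Of these, 3 were higher (23.1%), near the 25.5% of all genes. None was lower, against 34.2% of all genes, and the median was 0.51. MT-ND3, a complex I subunit and the highest of them, had 71080, 387155 and 39398 counts (log2 2.36, 2.35 to 2.37). MT-CO2 was the lowest (log2 -0.82, -0.83 to -0.81). Among 13 citrate cycle enzymes 4 were higher (30.8%) and 5 lower (38.5%), also close to the shares over all genes. CS, the citrate synthase and the most abundant of them with GST, had 5205, 10281 and 5102 counts (log2 0.90, 0.85 to 0.95). IDH3B, a subunit of isocitrate dehydrogenase, had 1673, 129 and 2524 (log2 -3.77). Of 13 measured regulators of respiratory chain transcription and of mitochondrial DNA, 4 were higher and 4 lower (30.8% each). TFAM, the packaging and transcription factor of mitochondrial DNA, had 809, 1763 and 496 counts (log2 1.04, 0.92 to 1.16).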

How the data were processed

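The authors' deposited tables give estimated counts that kallisto assigned to 196354 transcripts in each of 3 libraries. They also give the TPM values that the authors' pipeline derived from those. Per the submitters' processing notes, kallisto, DESeq2 and hg19 were used. Tool versions, annotation and what DESeq2 was used for are not given in the sources used. Per the labels' protocols, RNA was extracted with Trizol and libraries followed the BGISEQ-500 protocol. Transcripts were joined by Ensembl identifier to GENCODE 29 (GRCh38), which matched 92.6%, and the others held 3.79% to 4.20% of counts. Estimated counts were summed per gene, rounded and scaled by TMM (edgeR 4.0.16, R 4.3.3) over all genes, with a prior count of 0.5. Depth was 19137867 to 19845386 counts. With 1 library per group there is no replicate, and no p-value was computed. Exact Clopper-Pearson intervals (95%) use the split of the summed counts of the libraries compared. The calculation of ratios and calls was also run on simulated counts with counting error only, in which few genes changed, equally in both directions. In the data many genes were called and not equally in both directions. The simulation therefore cannot check the scaling or the ratios of these libraries. All members could be named; full values are given for complexes II and III, CYCS, the complex I core (1 member and 1 other gene are not reported here) and the 3 highest and 3 lowest members of each complex. Transcripts, coding splits and further members were named after their values were seen. The members and lists were chosen with earlier results of these data known. Alternatives were other scaling (DESeq2 1.42.0 size factors, totals), TPM with a pseudocount, other minimum counts, coding transcripts and a fit on GC content and length.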

Additional observations from a re-analysis of the deposited data

How the results depend on the processing

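No paired analysis was possible because each group has 1 library, and none could be left out. The medians of complexes I to V kept their sign for both wild-type comparisons under each of the alternatives run, with complex II between 0.72 and 1.18 for wild type over GST. The complex I median over GST (-2.10) was -3.08 with the main coding transcript only and -0.57 with the fit on GC content and length removed, and over the Ala mutant (-2.41) it was -3.85 and -0.71. That for Ala mutant over GST (0.40) was 0.11 with TPM at either pseudocount and 0.11 with the fit removed. The medians of complexes II (0.19) and V (0.18) in that comparison turned to -0.10 and -0.01 with TPM at a pseudocount of 0.5 and to -0.02 and -0.03 with library totals that leave out the most abundant genes. For wild type over GST, 34 members were lower and 12 higher with the fit removed, and in a separate alternative, a 4-fold threshold without that fit, 2 were higher. For Ala mutant over GST the members higher were 7 with TPM, 4 with the fit removed, 29 at 1.5-fold and 2 at 4-fold, and those lower were 5 with total counts or totals without the most abundant genes, 9 with the main coding transcript, 1 with the fit removed, 6 at 1.5-fold and 1 at 4-fold. For wild type over Ala mutant the members higher were 15 with totals without the most abundant genes, 14 with the fit removed, 15 at 1.5-fold and 4 at 4-fold. These totals shifted the all-gene median by 0.11, -0.21 and 0.32 in the 3 comparisons, total counts moved it by -0.14 (Ala mutant over GST) and 0.17 (wild type over Ala mutant), and TPM by -0.18 and 0.24. The share of higher among called genes for Ala mutant over GST, 63.7% as reported, was 47.5% with total counts, 38.6% with the other totals and 44.0% with TPM. Among ratios called higher or lower, signs turned for NDUFA7 (Ala mutant over GST, -0.18 with coding transcripts only and -0.27 with the main one) and ATP5S (wild type over Ala mutant, -0.95 with coding transcripts only). With the fit removed they turned for NDUFS8 (0.028), NDUFS7 (0.14) and NDUFB8 (0.13) with wild type over GST, and for ATP5MC2 (0.079), NDUFB8 (0.44) and NDUFA7 (0.31) over the Ala mutant. Signs also turned with the fit removed for members not called, 8 for wild type over GST (COX6A1 from -0.06 to 1.37 and NDUFA7 from -0.71 to 1.05 among them), 11 for wild type over Ala mutant and 20 for Ala mutant over GST. The cause of these shifts was not tested. Depth limits UQCRHL and ATP5MGL, which had under 50 counts in every library.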
